A study of Homo sapiens with 6 samples.

Results

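The 2 libraries labelled G1/S, 1 from human embryonic stem cells (hESCs) and 1 from endoderm derived from them, were compared with the 4 libraries labelled G1 and S from the same cell types. They are 2 of the 6 libraries of the series and were chosen by their phase label alone. The series looks at the transcriptome as cells pass from G1 into S phase, with polyadenylated RNA read near its 3' ends. All cells were H9, an established hESC line, at passage 51. The hESC libraries came from undifferentiated cells on Matrigel in medium conditioned by mouse embryonic fibroblasts, at 0 h (G1), 2 h (G1/S) and 3 h (S). The endoderm libraries came from day 6 cells, treated for 6 days with activin A at 100 ng/ml in RPMI medium with a medium change on day 3; serum went from 0% on the first day to 0.2% and then 2%. Their hours were 0 (G1), 3 (G1/S) and 6 (S), so the G1/S libraries of the 2 cell types differ in hour as well as in medium, serum and activin. How the cells were brought into phase is not given in the sources used here. Each combination of cell type and phase has 1 library from 1 cell line, so every p-value below measures only the spread among these libraries, which may be technical.

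As background, G1/S is the point at which cyclin-dependent kinases inactivate the retinoblastoma family, E2F factors switch on genes for DNA replication, and the cell commits to copying its genome. Pluripotent stem cells are known for a short G1, and the passage through it is linked to their choice between self-renewal and differentiation. Growth signals that push cells towards S phase also switch on immediate early genes, among them the FOS and JUN subunits of the transcription factor AP-1 and the feedback inhibitors that end the response.

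FOSB, an AP-1 subunit, and NAB2, which represses the immediate early factors EGR1 and EGR2, were the members of the immediate early and growth factor feedback lists with the largest peaks at G1/S among the named genes. The promoters of FOSB and NAB2 are shown because both genes belong to the growth factor response and peaked in both cell types. Both are RefSeq sequences of GRCh38.p14, 5′ to 3′, from 250 bases before to 50 bases after the start of the gene. FOSB lies at chr19:45467746-45468045 on the plus strand and NAB2 at chr12:57088864-57089163 on the plus strand. Capitals mark exact matches to the motifs searched.
FOSB: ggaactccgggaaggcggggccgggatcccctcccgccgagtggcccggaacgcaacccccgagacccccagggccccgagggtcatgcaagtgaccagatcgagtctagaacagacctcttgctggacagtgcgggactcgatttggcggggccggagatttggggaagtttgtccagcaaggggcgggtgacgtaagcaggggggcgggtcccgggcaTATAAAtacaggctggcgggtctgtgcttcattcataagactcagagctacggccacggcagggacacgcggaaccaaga
NAB2: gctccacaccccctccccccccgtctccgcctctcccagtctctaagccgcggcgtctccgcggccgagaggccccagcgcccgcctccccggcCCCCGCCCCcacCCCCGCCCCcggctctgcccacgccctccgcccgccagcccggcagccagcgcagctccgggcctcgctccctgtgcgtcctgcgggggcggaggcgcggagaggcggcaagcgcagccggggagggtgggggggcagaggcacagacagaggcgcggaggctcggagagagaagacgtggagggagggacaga
The search covered both strands. The AP-1 site was searched as TGACTCA, the cyclic AMP response element as TGACGTCA, an E2F site as TTTCCCGC and the GC box as GGGGCGGGG. The TATA box was searched as TATAAA and the CArG box, bound by SRF, by its consensus. The FOSB window held 1 TATA box, starting 30 bases before the start of the gene, and the NAB2 window held 2 GC boxes, 156 and 144 bases before it. Of 35116 promoter windows of the same length, 11.5% held the TATA box, 15.7% the GC box, 4.95% the AP-1 site, 1.85% the cyclic AMP response element, 1.63% the E2F site and 1.29% the CArG box. Of 40 such genes of these lists with a window, 9 held the TATA box, 11 the GC box, 6 the cyclic AMP response element, 2 the CArG box, 1 the AP-1 site and 1 the E2F site. A match is a description of the letters and not of a bound site.

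The table holds 14686 regions in which read ends gather, 10368 of them with a gene name. The libraries hold 2502792 to 6203079 reads, with 4194957 in hESC G1/S and 3205025 in endoderm G1/S. The unit used below is signal, the read count of a region after division by the size factor of its library. Where 3 signals of a cell type follow each other, they are those of G1, then G1/S, then S. A count of 0 allows a signal of up to 3.12 in hESC G1/S and 4.99 in endoderm G1/S (3 reads, counting error only). Read ends at a 3' site do not depend on transcript length, so signals are given per region as deposited. Endoderm markers followed the cell type labels: the summed signal of 9 measured definitive endoderm markers was 481 to 564 in the hESC libraries and 8545 to 18668 in the endoderm libraries, with no marker at 0. The hESC markers did so less clearly. Of 8 measured, SOX2 and DNMT3B were higher in every hESC library than in every endoderm library, L1TD1 was the reverse, and 5, POU5F1 among them, overlapped. Their summed signal was 2570 to 3089 in hESCs and 1584 to 1775 in endoderm, and without SOX2 it was 1172 to 1483 and 866.8 to 1289. A principal component analysis of log2(signal + 1) placed cell type on the first component (53.5% of the variance) and both G1/S libraries at the low end of the second (21.0%), at -72.2 in hESCs and -64.1 in endoderm against 7.19 to 62.5 in the other 4. The G1/S libraries of the 2 cell types were also closer to each other (Spearman's rho 0.839 over 14686 regions) than the G1 libraries (0.696) or the S libraries (0.738) were.

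A region of the mitochondrial genome was the single region that passed the limma test at G1/S, where it rose. Its signal in hESCs was 1238, 8072 and 1297, and in endoderm it was 800.9, 9945 and 686.4. Both G1/S libraries stood far above all 4 others, by 6.37-fold over the mean of G1 and S in hESCs and by 13.4-fold in endoderm. The region carries no gene name (NOVEL_2197) and spans positions 1634 to 1926 on the plus strand of chromosome M as deposited. Its difference, G1/S minus the mean of G1 and S with a term for cell type, was 3.21 ± 0.27 (log2 of signal + 1, SE, 2 against 4 libraries; limma adjusted p = 0.0204). It was the only call among all 14686 regions: 1 region higher (0.00681% of those tested) and 0 lower (0%), at an adjusted p under 0.05. At an unadjusted p under 0.05 there were 1070 higher and 1424 lower, edgeR also called this 1 region, and DESeq2 called 225, of which 24 were higher and 201 lower. The call was lost without the hESC G1/S library (adjusted p = 0.138), without endoderm G1 (0.199) and without endoderm S (0.165), where limma called 0 regions. It was also lost with G1 and S as separate levels (0.111), without the term for cell type (0.151) and without the intensity trend (0.351), and the log2 difference under every setting run lay between 2.67 and 3.74. Without hESC G1, hESC S or endoderm G1/S the region was called among 11, 6 and 36 regions (adjusted p = 0.0171, 0.00357 and 0.0375), and where a G1/S library is left out the lone one is assumed to vary like the rest. In bulk libraries such as these, a change in the share of cells that hold a transcript and a change in its amount per cell cannot be told apart.

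The other 4 mitochondrial regions took other courses. The first part of the human mitochondrial genome is known to hold the ribosomal RNA genes, and the rest the messenger RNAs of the respiratory chain; which of these each region covers was not looked up, as no annotation of the deposited build was used. NOVEL_2195 (positions 2 to 1058) had a signal of 21584, 3840 and 14083 in hESCs and of 3003, 3918 and 2884 in endoderm. NOVEL_2196 (positions 1212 to 1485) had 1913, 220.7 and 2257 in hESCs and 183.7, 176.3 and 260.2 in endoderm. Both stood far below G1 and S at G1/S in hESCs and near them in endoderm, a difference between cell types of 2.60 and 2.92 on the log2 scale (limma interaction adjusted p = 0.614 and 0.625). The region named BC018860 (positions 10452 to 10967) had 73304, 84889 and 42232 in hESCs and 19603, 45795 and 16049 in endoderm. The region named cytochrome b (positions 15013 to 16577), a subunit of respiratory complex III, had 15945, 16491 and 12211 in hESCs and 3070, 8794 and 2467 in endoderm. Both lay above G1 and S in each cell type, by 1.47-fold and 1.17-fold over their mean in hESCs and by 2.57-fold and 3.18-fold in endoderm, and neither passed the test (limma adjusted p = 0.26 and 0.26). In all, the mitochondrial genome took 0.522% to 3.03% of the reads of a library.

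**Figure D1:**
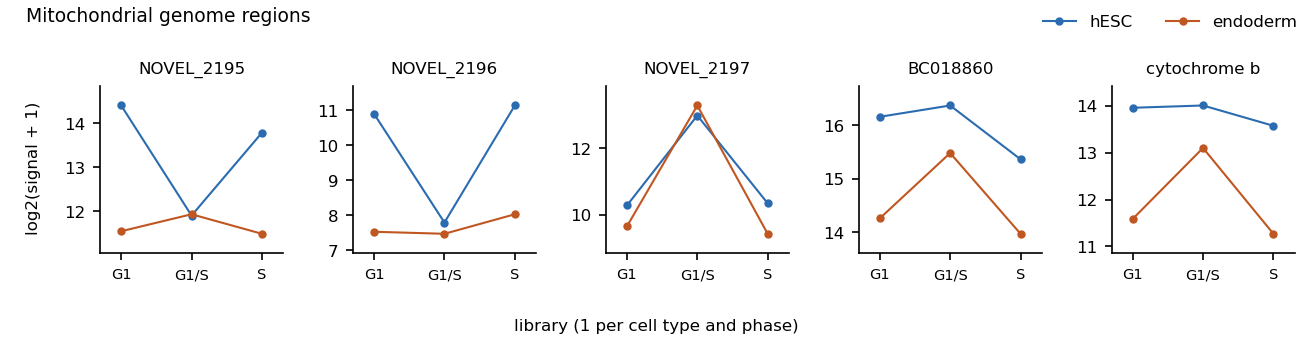
Signal of the 5 mitochondrial genome regions in every library, as log2(signal + 1), with 1 point per library, hESCs in blue and endoderm in orange. NOVEL_2197 stands at 8072 and 9945 in the G1/S libraries and between 686.4 and 1297 in the others, while at G1/S NOVEL_2195 is lowest in hESCs only and NOVEL_2196 in both cell types.

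Many regions had their highest or lowest value at G1/S in both cell types. A region was counted as a peak where its G1/S signal exceeded both G1 and S in hESCs and in endoderm, and as a dip where it was below both in both. There were 3586 peaks (24.4% of regions) and 2711 dips (18.5%). The G1 libraries were the highest in both types for 1750 regions and the lowest for 1781, and the S libraries for 1249 and 1635. With a gap of at least 2-fold in both types, 33 regions peaked (0.225%) and 348 dipped (2.37%) at G1/S, against 71 and 68 for G1 and 38 and 24 for S. With a constant of 5 in place of 1 inside the logarithm these became 10 and 120, and over the 9926 regions with a mean signal of at least 20 they were 12 and 182. Leaving out hESC G1, hESC S, endoderm G1 or endoderm S gave 149, 105, 51 and 133 peaks and 791, 559, 448 and 679 dips of 2-fold, as a region then has fewer values to exceed. The split moved with the scaling: centring each library on its median gave 4832 peaks and 1959 dips (71.2% peaks, against 56.9% as deposited), with the median difference of all regions at 0.25 against 0.06. With 1 region per gene name, 2602 of 9588 names peaked (27.1%) and 2057 dipped (21.5%).

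The genes with the largest peaks included FOSB, NAB2 and ARC, and 15 were named by the size of their gap, the log2 distance from G1/S to the nearer of G1 and S in the cell type where it is smaller. FOSB had a signal of 29.5, 246.8 and 43.7 in hESCs and of 17.3, 1113 and 58.2 in endoderm. Its G1/S level was 6.74-fold the mean of G1 and S in hESCs and 29.5-fold in endoderm, which is 3.91 ± 0.63 on the log2 scale (SE; limma adjusted p = 0.26). Without the hESC S library limma called FOSB (adjusted p = 0.0414), and DESeq2 called it with all libraries (adjusted p = 2.33e-07). NAB2 had 142.2, 465.4 and 200.2 in hESCs and 144.3, 1199 and 267.0 in endoderm, or 2.72-fold and 5.83-fold (2.03 ± 0.38, limma adjusted p = 0.26). Both G1/S libraries exceeded the other 4 for FOSB and for NAB2. ARC, an immediate early gene known from synapses, had 322.3, 731.9 and 384.5 in hESCs and 32.5, 312.8 and 77.0 in endoderm.

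Genes outside the growth factor response also stood among these peaks. C14orf4, now IRF2BPL, a nuclear protein, had 258.0, 892.3 and 337.3 in hESCs and 419.1, 1284 and 378.3 in endoderm (1.64 ± 0.25, limma adjusted p = 0.26). Its G1/S libraries again exceeded all others, at 3.00-fold and 3.22-fold the mean of G1 and S. NKX2-5, a homeobox factor of heart development, had 270.1, 543.5 and 161.3 in hESCs and 141.5, 738.7 and 378.3 in endoderm. BST2, an interferon-induced membrane protein that tethers virus particles, had 291.3, 686.1 and 217.4 in hESCs and 369.4, 840.1 and 431.3 in endoderm. SPSB1, a SOCS box adaptor of ubiquitin ligases, had 50.7, 110.4 and 57.3 in hESCs and 122.2, 815.2 and 414.2 in endoderm. NKX2-5 and BST2 at G1/S lay above all 4 other libraries, whereas SPSB1 in hESC G1/S lay below every endoderm library. RPRD1B, a regulator of RNA polymerase II, had 11.3, 69.8 and 29.5 in hESCs and 33.8, 69.9 and 27.4 in endoderm. The gut peptide hormone PYY had 77.2, 154.1 and 60.8 in hESCs and 9 reads against 2 and 0 in endoderm. The phosphatase inhibitor PPP1R1B likewise had 5 endoderm reads at G1/S against 3 and 1. The remaining 5, the vesicle protein RPH3AL, DNAJC22, ANO8, the ion pump regulator FXYD7 and the rRNA processing factor UTP3, differed by 1.21 to 1.62 on the log2 scale.

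Most of the largest dips rested on few reads at G1/S, and their size depended on the constant inside the logarithm. STAT2, a mediator of type I interferon signalling, had a signal of 86.2, 5.21 and 120.5 in hESCs and of 15.9, 0 and 11.98 in endoderm. These G1/S values are 5 and 0 reads, and the difference was -3.97 ± 0.48 (log2, SE; limma adjusted p = 0.168), the next smallest adjusted p after the mitochondrial region. With a constant of 5 in place of 1 it was -2.65, while that of FOSB was 3.76 in place of 3.91. Of the 15 dips named, 11 had fewer than 10 reads in hESC G1/S and 12 in endoderm G1/S, among them the glycosylation enzyme DPAGT1, the death effector domain protein DEDD, the heat shock factor HSF2 and the mitosis protein NDE1. PKP4, a plakophilin of cell junctions, had 227.7, 6.25 and 314.3 in hESCs and 15.2, 1.66 and 8.56 in endoderm. MARVELD2, a protein of tight junctions between 3 cells, had 248.9, 21.9 and 307.8 in hESCs and 38.0, 6.65 and 25.7 in endoderm. For PKP4 and MARVELD2 both G1/S libraries were below every other library of the same cell type, and endoderm was below hESCs in G1 and in S.

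Of the 15 named dips, TOP2A and RPS27L had the most reads at G1/S. TOP2A, the topoisomerase that untangles DNA for chromosome segregation, had 610.5, 67.7 and 221.5 in hESCs and 499.2, 126.4 and 710.3 in endoderm, 6.15-fold and 4.78-fold below the mean of G1 and S (-2.33 ± 0.41, limma adjusted p = 0.26). RPS27L, a p53-induced paralogue of the ribosomal protein RPS27, had 970.6, 167.6 and 529.9 in hESCs and 729.8, 129.8 and 547.7 in endoderm, 4.48-fold and 4.92-fold below (-2.18 ± 0.32, limma adjusted p = 0.26). In both genes the 2 G1/S libraries were below all 4 others, and both were called without the hESC S library (limma adjusted p = 0.0414 and 0.0414) and by DESeq2. LOXL2, a lysyl oxidase that crosslinks collagen, had 80.2, 20.8 and 508.0 in hESCs and 75.3, 23.3 and 104.4 in endoderm. The interaction of the G1/S difference with cell type passed for none of the 30 named peaks and dips. DESeq2 called 5 of the 15 peaks and all 15 dips, against 225 of all 14686 regions, 24 of them higher and 201 lower. The 30 genes were chosen by their gaps in these same values, so such counts are no independent evidence. At the edge of the choice, the last peak named was UTP3 with a smallest gap of 0.90 and the first left out was C17orf46 with 0.89, while for dips they were LOXL2 (1.65) and MAP3K7 (1.62), among 7640 names with a mean signal of at least 20.

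**Figure D2:**
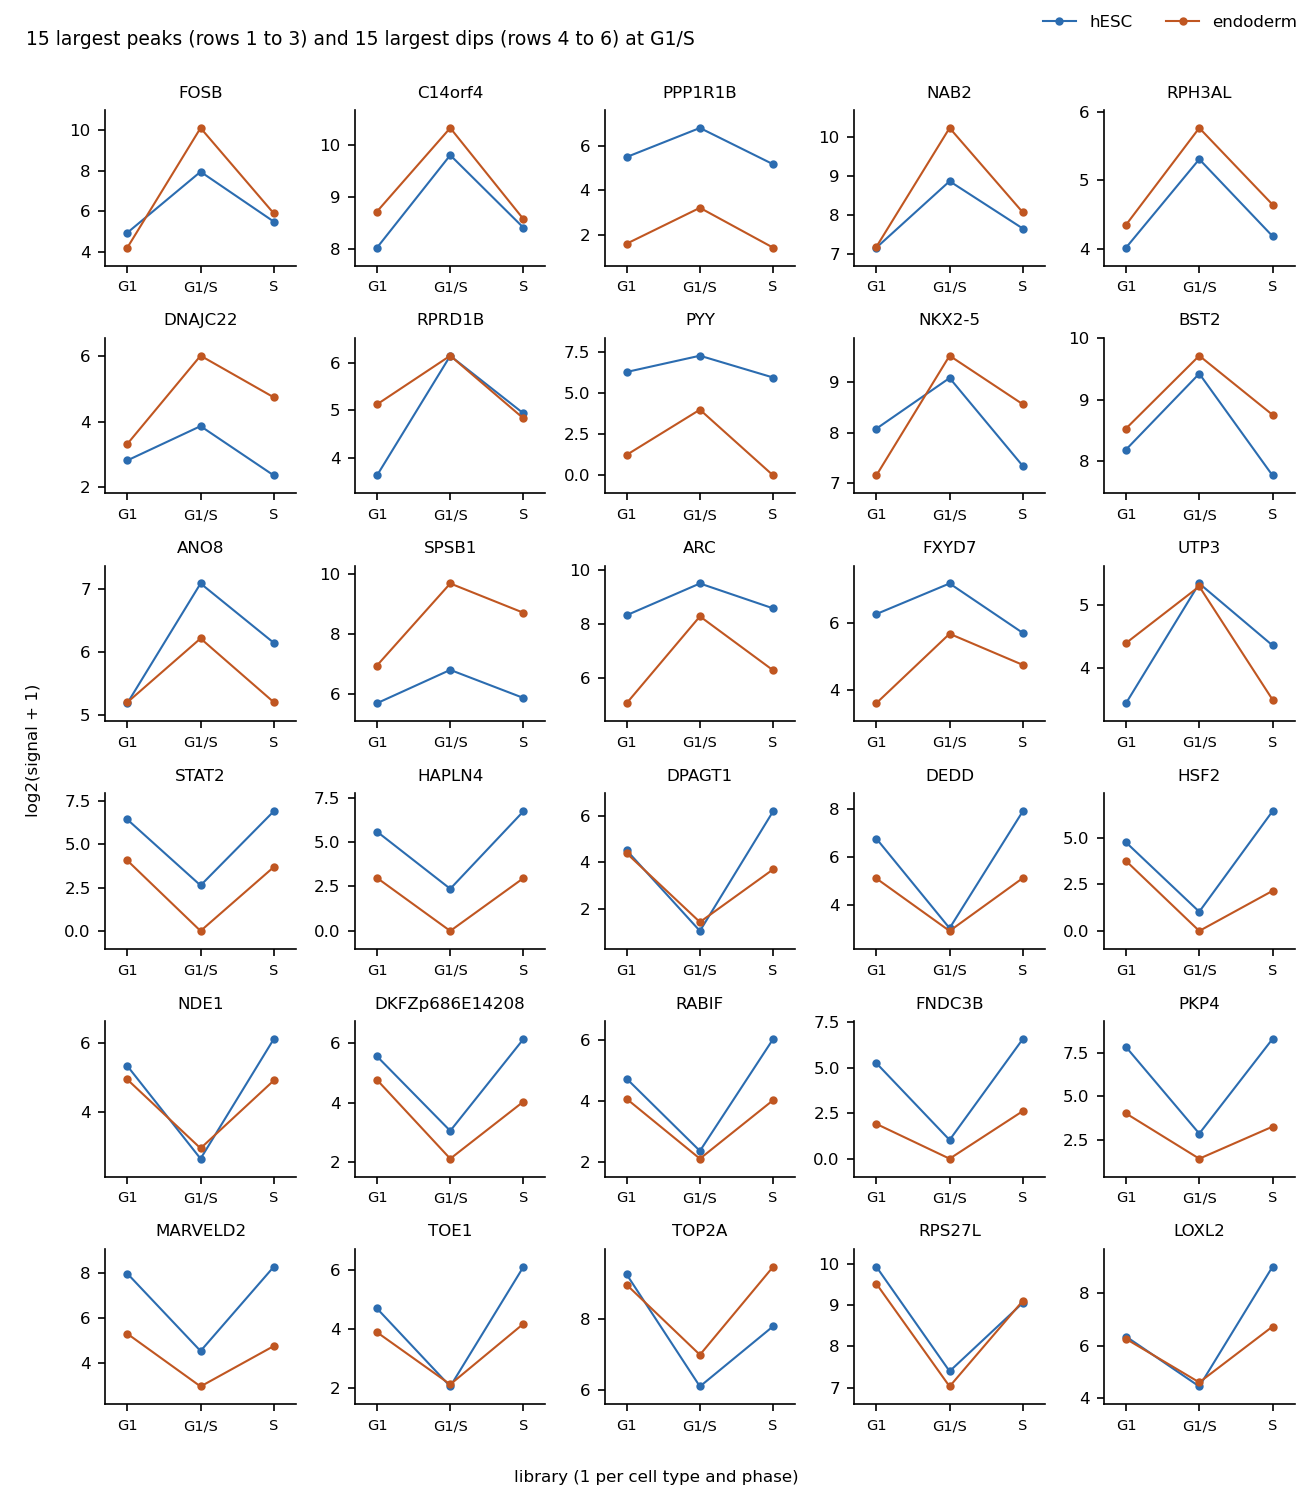
Signal of the 15 named peaks and 15 named dips in every library, as log2(signal + 1), each panel with its own axis, 1 point per library, hESCs in blue and endoderm in orange. FOSB runs from 29.5 to 246.8 and 43.7 in hESCs, and STAT2 from 86.2 to 5.21 and 120.5; by the choice of genes every line has its extreme at G1/S.

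Both G1/S libraries favoured transcripts rich in G and C. GC content was taken over the last 500 bases of the transcripts that share the name of a region, for 9907 regions. Its Spearman correlation with a library's deviation from the mean of its cell type was 0.44 in hESC G1/S and 0.45 in endoderm G1/S, and between -0.40 and -0.12 in the other 4 libraries. From the lowest to the highest quintile of GC content the median log2 difference at G1/S went from -0.52 through -0.46, -0.05 and 0.33 to 0.52. In the same order the share of regions that peaked went from 7.72% to 57.4%, and the share that dipped from 35.6% to 2.37%. Peaks had a median GC content of 57.4%, dips of 44.2% and all regions of 50.3%. On chromosome 19, where the median was 59.0%, 44.2% of regions peaked, and on chromosome 13, with a median of 41.1%, 11.3% did. How much of a G1/S difference follows from GC content in the making of these libraries, and how much from the cells, cannot be told apart, since each phase of a cell type is 1 library.

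**Figure D3:**
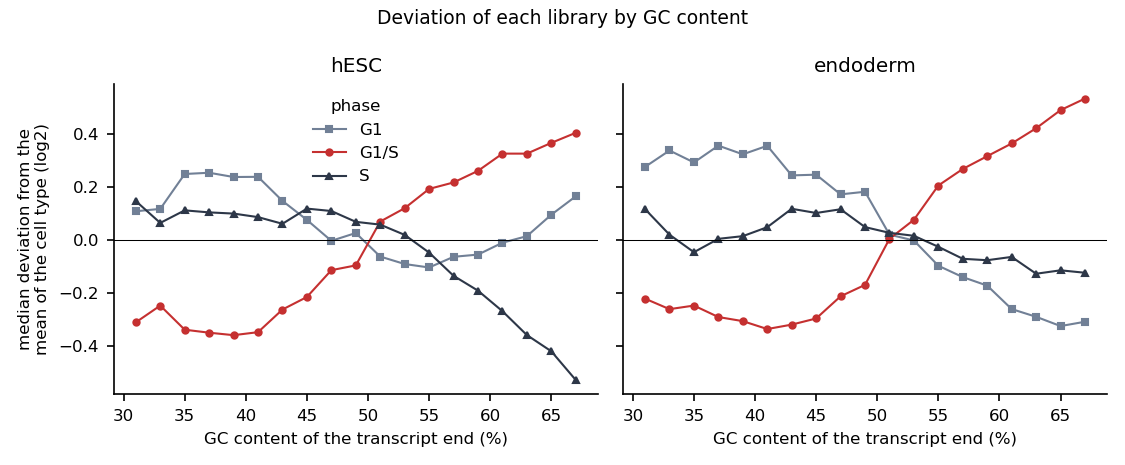
Median deviation of regions from the mean of their cell type (log2) against GC content of the transcript end (%), in bins, for each library of hESCs (left) and endoderm (right). The G1/S lines climb from -0.31 and -0.22 in the bin centred at 31% to 0.41 and 0.53 in that at 67%, and the endoderm G1 and hESC S lines go down over the same range.

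A smooth curve of deviation on GC content was then taken out of each library. The correlation of GC content with the G1/S difference went from 0.51 to 0.02, and peaks among the 9907 regions went from 2639 to 1884 and dips from 2119 to 1665. The named genes kept their direction: all 15 peaks, and the 14 dips with a GC value, still lay beyond both G1 and S in both cell types. They were chosen for large gaps in these same values, so this is no test of the part of GC content. C14orf4 and UTP3 had a GC content of 33.6% and 29.8%, so the correction raised their differences, from 1.64 to 2.09 (limma adjusted p = 0.0656) and from 1.40 to 1.84. FOSB went from 3.91 to 3.72, NAB2 from 2.03 to 1.68, STAT2 from -3.97 to -3.91, TOP2A from -2.33 to -1.85 and RPS27L from -2.18 to -1.71. NKX2-5, at 65.9% GC, went from 1.52 to 0.85. Of the named genes 5 of 15 peaks and 9 of 14 dips were still among the 15 largest after correction. Among the other peaks then were the mRNA decay factor ZFP36L2 (301.1, 489.3 and 207.3 in hESCs; 194.7, 685.4 and 342.3 in endoderm) and the kinetochore protein CENPH (638.5, 992.2 and 611.4; 414.3, 702.1 and 337.2). On these 9907 regions, which do not include the unnamed mitochondrial region, limma called 0 before and 0 after the correction, with 2218 and 1433 at an unadjusted p under 0.05.

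Peaks of any size were also the more abundant transcripts, and those of 2-fold were not. With 1 region per name, peaks had a median signal of 348.5, dips of 39.0 and all names of 75.9. The 11 names that peaked by 2-fold had a median of 27.9, and the 244 that dipped by 2-fold 28.9. From the lowest to the highest quintile of mean signal the share of names that peaked went from 10.1% to 62.1% and the share that dipped from 29.5% to 5.58%, and GC content went along, with medians of 43.4% and 56.5%. Within the middle quintile of GC content, peaks still had a median signal of 350.1 and dips of 53.5. After GC correction the share of peaks still went from 12.8% to 32.6% across the quintiles of signal. Dips carried more copies of ATTTA, the core of the AU-rich elements that speed mRNA decay, in the last 500 bases (a mean of 0.80 against 0.32 in peaks), but within the middle quintile of GC content the means were 0.41 and 0.44. The cleavage signal AATAAA was searched only in a shorter stretch at the very end. It was held by 30.7% of transcripts of peaks and 30.8% of those of dips, against 31.1% for all names. The part of abundance in the G1/S difference was not tested.

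**Figure D4:**
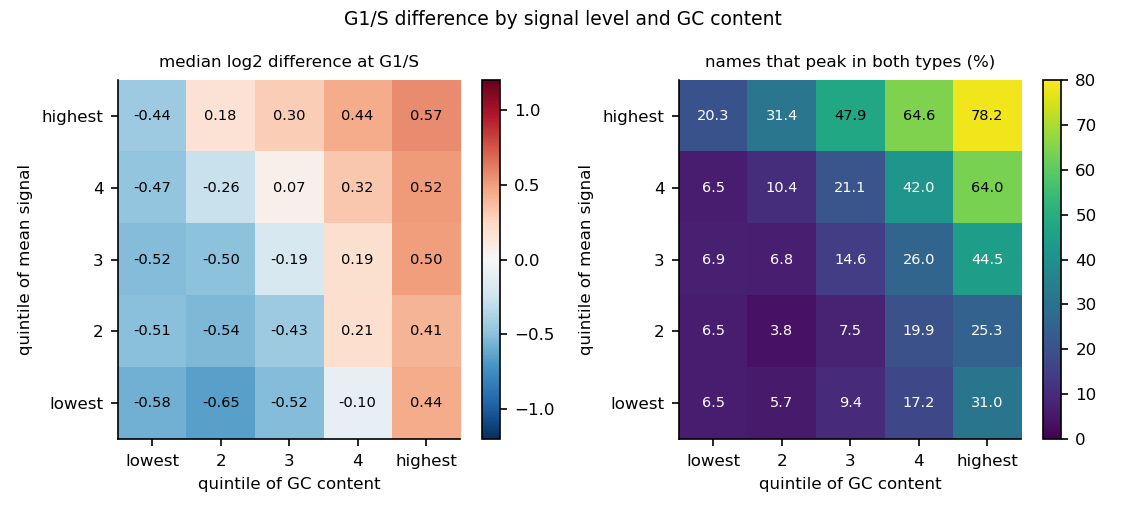
Median log2 difference at G1/S (left) and share of names that peak in both cell types (right, %), for 9135 names split into quintiles of mean signal (vertical) and quintiles of GC content (horizontal). The share of peaks is 6.54% in the lowest quintile of both and 78.2% in the highest quintile of both, and the median difference there is -0.58 and 0.57.

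Gene lists are described by counts of peaks and dips and by the median log2 difference. Medians are as deposited and after GC correction, and counts are as deposited unless stated. No member of a list of nuclear genes passed the test at an adjusted p under 0.05. Over all 9588 names the medians were 0.05 and 0.01, and 27.1% of names peaked and 21.5% dipped. After correction 1739 of the 9135 names with a GC value peaked and 1548 dipped. Most members named are among the 4 with the highest mean signal in their list. In the highest quintile of mean signal 62.1% of names peaked and 5.58% dipped as deposited, so a choice by signal favours peaks.

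AP-1 subunits had a median difference above that of all names, and the other immediate early genes did not. Of 12 measured AP-1 subunits 5 peaked and 2 dipped, and the median difference was 0.47 as deposited and 0.44 after GC correction. FOSL1 had 649.9, 1548 and 1181 in hESCs and 493.7, 2098 and 1446 in endoderm, and MAFK, a small MAF protein, 370.7, 562.2 and 284.7 and 162.9, 911.7 and 655.6. JUN had 385.8, 579.9 and 617.3 in hESCs and 768.5, 1727 and 1304 in endoderm, so its G1/S value was below S in hESCs. JUNB, named after its values were seen, had 52.96, 269.7 and 106.3 in hESCs and 69.0, 267.8 and 154.1 in endoderm. FOS itself had few reads, with a signal of 15.1, 12.5 and 11.8 in hESCs and 32.5, 9.98 and 6.85 in endoderm, and ATF3, a stress-induced member, dipped at 74.9, 40.6 and 69.7 and 258.9, 156.4 and 280.7.

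Of 24 other immediate early genes 7 peaked and 2 dipped (median -0.11 as deposited, 0.01 corrected; positive at 0.09 with median centring). IER3, a survival gene, had 4101, 9182 and 5275 in hESCs and 14585, 20461 and 13611 in endoderm. AXUD1, a nuclear protein now called CSRNP1, had 497.0, 1359 and 806.9 in hESCs and 1371, 5879 and 3353 in endoderm. PPP1R15A, which directs the phosphatase that restarts translation after stress, had 354.1, 893.3 and 479.1 and 1047, 4512 and 3143. These 3 peaked, while SRF, the factor that drives many immediate early genes, had 239.8, 395.6 and 522.2 and 571.0, 688.8 and 891.8, in order of phase. Of 18 genes of MAP kinase feedback 3 peaked and 2 dipped (median -0.08 and -0.01; positive with median centring and quantile normalisation). Its phosphatase DUSP8 had 137.7, 189.5 and 113.4 in hESCs and 167.1, 515.7 and 219.1 in endoderm. DUSP4, another such phosphatase, was opposite in the cell types, with 191.4, 65.6 and 161.3 in hESCs and 1293, 2357 and 1775 in endoderm (interaction adjusted p = 0.9998, limma).

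Notch pathway genes went both ways. Of 19 measured, 7 peaked and 3 dipped as deposited, and 2 peaked and 3 dipped after GC correction. The median of 0.25 became -0.16. LFNG, a glycosyltransferase that tunes Notch receptors, had 314.7, 1038 and 606.7 in hESCs and 103.6, 655.5 and 176.3 in endoderm (1.76 ± 0.39; 1.76 after correction; limma adjusted p = 0.26). The Notch target HES4, at 75.05% GC, had 290.5, 441.4 and 183.1 in hESCs and 662.8, 2644 and 962.0 in endoderm. Its difference of 1.33 became 0.32 after correction. HES1, the main Notch effector, had 1184, 39.6 and 1328 in hESCs and 83.6, 51.6 and 61.6 in endoderm. HES1 in hESCs was therefore far below G1 and S at G1/S, while the 3 endoderm libraries lay close together. Without the endoderm G1/S library its log2 difference was -4.95, which rests on the hESC G1/S library alone.

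The genes of DNA replication did not peak more often than names in general. Of 60 measured genes of G1/S and DNA replication 12 peaked (20%) and 14 dipped (23.3%), against 27.1% and 21.5% of all names. Their median difference was -0.37 as deposited and 0.02 after GC correction. The replicative helicase subunit MCM7 had 3033, 4358 and 2593 in hESCs and 2938, 4956 and 3114 in endoderm (0.67 ± 0.19, limma adjusted p = 0.26). The helicase subunit MCM5 had 2790, 3484 and 1902 and 1801, 3247 and 2223, and CDT1, which loads the helicase, 2021, 2347 and 1349 and 1224, 2196 and 1303. These abundant genes, and thymidine kinase TK1, peaked in both cell types, but after correction TK1 stood at 0.04 and CDT1 at 0.14. E2F1, named after its values were seen, peaked too, at 318.5, 370.7 and 145.9 and 428.1, 685.4 and 414.2. In the other direction, and again chosen after their values were seen, the nucleotide enzymes TYMS (410.8, 66.6 and 304.2; 240.3, 78.2 and 135.2) and RRM1 (43.1, 19.8 and 52.6; 46.9, 1.66 and 20.5) and the licensing factor CDC6 (155.1, 59.4 and 210.3; 95.3, 33.3 and 46.2) dipped. The corrected differences of TYMS, RRM1 and CDC6 were -1.39, -1.96 and -0.88. The endoderm G1/S signal of RRM1 is 1 read, so the size of its difference depends on the constant inside the logarithm.

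Cyclins and their inhibitors had a median close to that of all names. Of 17 measured G1 cyclins, kinases, inhibitors and pocket proteins 3 peaked (17.6%) and 2 dipped (11.8%), against 27.1% and 21.5% of all names. Their median was 0.02, corrected 0.10, and it was negative in edgeR and DESeq2. CCND1, the cyclin that starts the inactivation of the retinoblastoma protein, had 2651, 4424 and 2331 in hESCs and 2437, 5726 and 5280 in endoderm. CCNE1, the cyclin of the G1/S transition, had 381.3, 406.0 and 265.8 in hESCs and 349.4, 301.1 and 178.0 in endoderm, highest at G1/S in hESCs only. CDKN1A, the p53-induced kinase inhibitor p21, dipped, with 1633, 421.7 and 2176 in hESCs and 530.3, 301.1 and 626.5 in endoderm (-1.55 ± 0.32, corrected -1.85, limma adjusted p = 0.26). Of 22 p53 targets 3 peaked and 6 dipped, with medians of -0.51 and -0.24, CDKN1A and RPS27L among the dips.

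Of 33 measured G2/M genes 5 peaked and 10 dipped, with a median of -0.50. Over the 32 with a GC value the median was -0.37. After correction it was -0.03, with 7 peaks and 5 dips. The most abundant of them peaked: FOXM1, the factor that drives the G2/M program, had 2177, 2703 and 1678 in hESCs and 1254, 2013 and 1534 in endoderm, and the spindle protein TPX2 had 854.1, 1400 and 1048 and 845.1, 1364 and 1150. CDC20 and BIRC5 peaked as well, by log2 differences of 0.50 and 0.53. Of all names in the highest quintile of mean signal, 62.1% peaked. CCNB1, the mitotic cyclin, had at most 40 reads in a library. Of 12 histone genes with a region 5 peaked and 1 dipped (median 0.29, corrected 0.32). RNA was selected with oligo(dT), which histone mRNAs without a poly(A) tail largely escape. The linker histone H1FX had 1077, 1366 and 770.3 in hESCs and 900.4, 2868 and 1280 in endoderm.

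Pluripotency genes had the lowest median of the lists. Of 18 measured 2 peaked and 9 dipped, with a median of -0.78 as deposited and -0.43 after GC correction. LEFTY1, a secreted inhibitor of nodal, had 2933, 281.1 and 9399 in hESCs and 1344, 274.5 and 308.1 in endoderm (-2.72 ± 0.79, limma adjusted p = 0.26). The surface sialomucin PODXL had 580.3, 410.2 and 727.2 and 1694, 517.4 and 1280, and dipped as well. SOX2 had 1917, 1537 and 1391 in hESCs and 341.8, 843.5 and 486.1 in endoderm, so it was highest at G1/S in endoderm only. POU5F1, named after its values were seen, had 153.6, 595.5 and 259.3 in hESCs and 255.5, 292.8 and 311.5 in endoderm. Of 15 definitive endoderm genes 2 peaked and 2 dipped (median 0.27, corrected 0.01; negative with quantile normalisation). The T-box factor EOMES had 5270, 8989 and 3670 in the endoderm libraries and the homeobox factor GSC 2234, 5257 and 1951. In hESCs, where both are low, they had 275.4, 276.9 and 219.2 and 99.9, 79.1 and 49.0.

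Genes that act on the poly(A) tail also had a median below that of all names. Of 30 measured 4 peaked and 11 dipped as deposited, and 6 peaked and 5 dipped after GC correction. The medians were -0.67 and -0.32. PABPC1, the main cytoplasmic poly(A)-binding protein, had 1813, 186.4 and 454.2 in hESCs and 1873, 279.5 and 1224 in endoderm (-2.36 ± 0.49, corrected -2.18, limma adjusted p = 0.26), both G1/S libraries below all 4 others. Without the hESC S library limma called PABPC1 (adjusted p = 0.0249). PABPC4, its paralogue, had 7473, 1060 and 2457 in hESCs and 1912, 2018 and 1831 in endoderm, with no dip in endoderm, and the nuclear protein PABPN1 peaked at 1759, 3059 and 1858 and 1864, 4021 and 3218. Near-identical copies of PABPC1 exist in the genome, so its reads may be shared with them. The libraries were made by priming on the poly(A) tail, and whether tail length moves with phase was not tested.

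The lists for protein synthesis and respiration had medians within 0.22 of 0 after GC correction. Of 58 translation factors 12 peaked and 14 dipped (median -0.41, corrected -0.01). Of 59 cytosolic ribosomal proteins 16 peaked and 9 dipped (0.06, corrected 0.22; negative in edgeR and with quantile normalisation). Of 71 mitochondrial ribosomal proteins 18 peaked and 25 dipped (-0.35, corrected 0.00), and of 76 nuclear genes of the respiratory chain 19 and 24 (-0.11, corrected 0.00; positive with median centring). The elongation factor EEF2, with the highest mean of all named regions with a GC value, had 45845, 64648 and 53707 in hESCs and 63140, 76962 and 59966 in endoderm. Its log2 difference of 0.35 became 0.05 after GC correction and -0.21 with quantile normalisation. The ribosomal protein RPL8 had 15117, 20373 and 13720 and 12475, 24125 and 14736, and its difference of 0.67 became 0.29. Splicing factors (9 peaks and 15 dips of 57), proteasome subunits (8 and 9 of 36) and heat shock proteins (10 and 12 of 48) had medians of -0.27, -0.17 and -0.23, which became 0.04, 0.04 and -0.05; the proteasome median was positive with median centring.

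Glycolytic genes differed from each other, and GAPDH took opposite courses in the libraries of the 2 cell types. Of 20 genes of hypoxia and glycolysis 6 peaked and 6 dipped (median -0.06, corrected -0.17; positive with median centring). ENO1, the glycolytic enolase, had 23562, 4409 and 28679 in hESCs and 7077, 7575 and 8271 in endoderm. GAPDH, often used as a reference gene, had 14392, 7421 and 11272 in hESCs and 4565, 7395 and 4859 in endoderm, lowest at G1/S in hESCs and highest in endoderm. The interaction of its G1/S difference with cell type did not pass (limma adjusted p = 0.9998). Pyruvate kinase PKM2 had 5597, 12283 and 5867 and 12196, 21396 and 15984 and peaked in both. Without the endoderm G1/S library the log2 difference of ENO1 was -2.56, which rests on the hESC G1/S library alone. Of 14 stromal or feeder cell markers 4 peaked and 3 dipped (median 0.08, corrected -0.14, negative in edgeR and with quantile normalisation). The 5 measured of 9 defining markers summed to 5306, 9146 and 7982 in hESCs and 1929, 2444 and 3507 in endoderm. None was at 0. Without THY1, the highest of them, the sums were 1966, 3611 and 3694 in hESCs and 739.5, 828.5 and 1417 in endoderm. Of 6 neuroectoderm markers 3 peaked and 0 dipped (median 0.52). After GC correction 1 peaked and 0 dipped (median 0.24), and the part of these markers in the results was not tested.

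**Figure D5:**
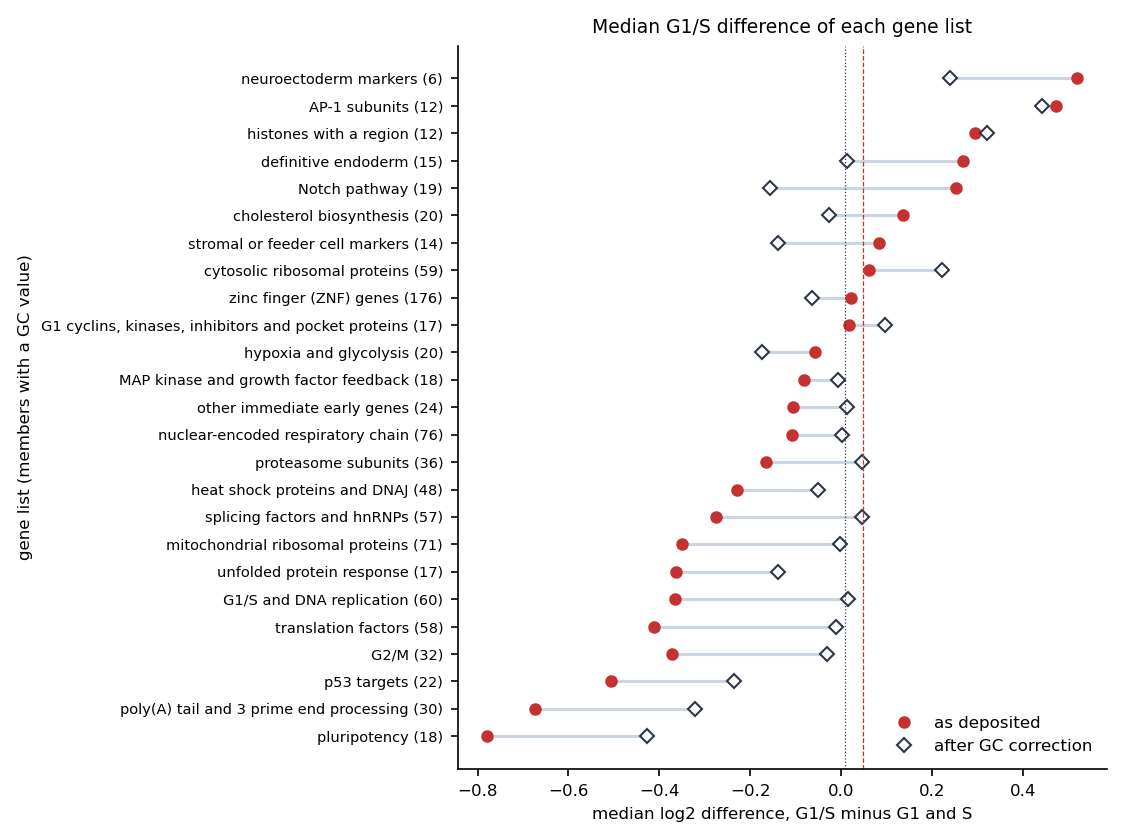
Median log2 difference at G1/S of each gene list over its members with a GC value (number in brackets), as deposited (red circles) and after GC correction (open diamonds); dashed and dotted lines mark the medians over all names. AP-1 subunits stay at 0.47 and 0.44, while G1/S and DNA replication genes go from -0.37 to 0.02 and pluripotency genes from -0.78 to -0.43.

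The G1/S difference was alike in the 2 cell types to a limited degree. Its Spearman correlation between hESCs and endoderm was 0.42 over 14686 regions, whose GC content both share. By at least 2-fold beyond both G1 and S, 13 regions were higher at G1/S in hESCs and lower in endoderm, and 29 the reverse. The interaction of G1/S with cell type passed for 0 regions (0%) in limma, with 570 at an unadjusted p under 0.05, in a fit with 2 residual degrees of freedom. Among 719 names with several regions, 296 had a region that peaked, 261 had a region that dipped and 46 had both. Of all regions 24.4% peaked and 18.5% dipped, and whether 46 departs from these shares was not tested. In CNOT3, a subunit of the deadenylase complex, chosen after its values were seen, the region at chr19:59349820-59349999 had 19.7, 5.21 and 30.1 in hESCs and 4.14, 0 and 5.13 in endoderm, while that at chr19:59350941-59351228 had 147.5, 291.5 and 144.1 and 161.6, 405.9 and 356.0. The first of these regions rests on few reads, with 5 in hESC G1/S and 6, 0 and 3 in endoderm. The 2 regions share the GC value of the gene, 60.2%.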

How the data were processed

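The members and gene lists were chosen with earlier results of these data known, so no list is independent evidence. CASAVA 1.5, Bowtie 0.12.7, DESeq 1.5.24 and the builds hg18 and NCBI36 are listed, with no roles, in the submitters' processing notes; positions of regions are of that build. The authors deposited a signal value per region and library, on a linear scale; at a tolerance of 1e-06, 100% of values in each library are whole reads divided by 1 size factor, and 0 value columns were left unmapped. The median region has 259 reads over the 6 libraries.

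Differences are of log2(signal + 1) over all 14686 regions, fitted with limma 3.58.1 (intensity trend, term for cell type, 3 residual degrees of freedom, prior 5.60) in R 4.3.3. The threshold was a Benjamini-Hochberg adjusted p of 0.05. Recovered reads were also tested with edgeR 4.0.16 (quasi-likelihood, TMM) and DESeq2 1.42.0. Named genes are the 15 largest peaks and 15 largest dips by the smaller gap of the 2 cell types, 1 region per name, mean signal at least 20, and the 4 highest members of each list. Of 9588 names 7978 matched a current symbol and 1159 an older one. GC content used GENCODE transcripts of a later build, for 95.6% of named regions, with a lowess span of 0.3 for the correction. The design was followed, and it allowed for linear values, with 2 additions. Some genes, among them FOS, ATF3, CCNE1, CCNB1 and those marked as named after their values were seen, are outside the naming rule. The alternative with a mean of at least 20 was not planned. The fit was tested on simulated data, and figures were drawn with matplotlib 3.10.9.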

Additional observations from a re-analysis of the deposited data

How the results depend on the processing

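Without 1 library in turn, limma called 0 to 36 regions in place of 1. It called 0 without an intensity trend, with phase at 3 levels and without the term for cell type, and DESeq2 called 225. Leaving out a library changed the 2-fold peaks to between 51 and 149 and the 2-fold dips to between 448 and 791; without a G1/S library they cannot be counted. The 2-fold peaks numbered 10 with log2(value + 5), 11 with a filter on low values, 81 with median centring, 99 with quantile normalisation and 12 at a mean of at least 20, an alternative chosen after seeing the data. The 2-fold dips numbered 120, 179, 229, 217 and 182 in the same order, and dips of any size 1650 with the filter and 1750 at that mean. Among regions with a GC value, GC correction changed 2-fold peaks from 12 to 45, 2-fold dips from 254 to 153 and interaction calls from 1 to 0. With fewer regions tested, an interaction passed that did not over all regions. GC correction moved 16 of 27 list medians by more than the SD between the medians of the 2 cell types; the cause was not tested. No paired analysis was possible because each cell type and phase has 1 library. Depth limits the dips, since most of those named rest on fewer than 10 reads at G1/S.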

Other observations

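Among the 4318 regions without a gene name, 819 peaked and 512 dipped at G1/S in both cell types. Of peaks 77.2% had a gene name and of dips 81.1%, against 70.6% of all regions. Of the 33 regions that peaked by 2-fold 21 had no gene name. The median signal of these 33 was 14.7, against 38.8 for all regions. Of 176 zinc finger (ZNF) genes 39 peaked and 38 dipped, with 11 dips of 2-fold (median 0.02, negative in edgeR, and -0.06 after GC correction). Of 20 genes of cholesterol synthesis 6 peaked and 5 dipped. Of 17 genes of the unfolded protein response 4 peaked and 6 dipped (median -0.36). After GC correction 4 peaked and 2 dipped (median -0.14). The chaperone CALR had signals of 3731, 7621 and 4493 in G1, G1/S and S of hESCs and 5496, 6828 and 5197 in endoderm. H19, an imprinted noncoding RNA, had 99.1, 108.3 and 72.7 in hESCs and 137.4, 507.4 and 208.8 in endoderm.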
